A study of Mus musculus with 49 samples.

Results

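Ribosome-bound RNA was compared with whole cell RNA of D2 dopamine receptor-expressing medium spiny neurons (D2-MSNs) of the mouse nucleus accumbens (NAc). The members were the 6 RiboTag libraries of D2-MSNs labelled male and the 6 whole cell-FACS libraries of D2-MSNs labelled male, 12 of 47 libraries used from a series of 49 samples, and were chosen by fraction and cell type alone. For number 3 of the whole cell libraries a further column, marked L8 and taken as another sequencing lane, was summed with the first. The labels also name whole cell D2 replicates past number 6, which had no numbered column. The last of these conflicts with the group sizes that the study gives, and was left unassigned and out of every comparison. Whether the L8 column belongs to any of them was not tested. Mice were on a C57BL/6J background, and each sample came from a separate mouse. RiboTag mice carried Drd2-cre and a floxed Rpl22 allele (Rpl22-loxPexon4loxP-exon4-HA) that turns into HA-tagged Rpl22 where Cre is active, and tagged ribosomes were purified from fresh tissue. Whole cell mice carried, heterozygously, a cytoplasmic fluorophore driven by the Drd2 promoter, and cells were sorted from fresh tissue after papain digestion. Both fractions therefore depend on Drd2-driven transgenes, which also mark other cells with an active Drd2 promoter, and mouse line and dissociation method cannot be told apart from fraction. The D1 dopamine receptor-expressing counterparts (D1-MSNs), 6 RiboTag libraries with Drd1-cre and 8 whole cell libraries with a Drd1-driven fluorophore, served only to ask whether a difference was shared. Ages were not given in the sources used here.

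MSNs are the GABAergic projection neurons of the striatum. D2-MSNs use the dopamine receptor Drd2, the adenosine receptor Adora2a and the opioid peptide precursor Penk, whereas D1-MSNs use Drd1, Pdyn and Tac1. A whole cell holds unspliced nuclear transcripts, nuclear non-coding RNAs and mRNAs that wait outside ribosomes, while a ribosome pull-down enriches spliced mRNAs engaged in translation. Proteins of the ribosome are made from mRNAs that begin with a pyrimidine run, the terminal oligopyrimidine (TOP) motif, through which mTOR signalling sets their translation.

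The authors counted fragments over whole gene bodies, introns included, without regard to strand. Levels are given here as scaled CPM, the counts of a gene per 1e+06 of the effective library size. This size was set by TMM normalization over the 11239 genes with at least 10 counts in each of the 12 libraries, so that the median log2 fold change of those genes was -0.04. Positive log2 fold changes stand for a higher level in RiboTag. A gene was called when edgeR's quasi-likelihood test gave a Benjamini-Hochberg adjusted p of at most 0.05 and the absolute log2 fold change was above 0.38. A scaled CPM is not corrected for gene length, so levels are compared between fractions and not between genes.

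Total counts ran from 24076888 to 42678808 in RiboTag and from 10850298 to 27965357 in whole cell libraries, and 3 counts, the smallest level taken as detectable, stood for 0.182 to 0.318 and 0.0343 to 0.0984 scaled CPM. Whole cell libraries stood apart from one another. Their 10 highest genes held 3.15 to 54.5% of the counts, with the highest shares in numbers 2, 6 and 5, against 87.1 to 88.3% in RiboTag. Olfactory and vomeronasal receptor genes, which neurons of this region are not expected to use, held 0.0224 to 0.0916 scaled CPM per kilobase in whole cell libraries and 0.000517 to 0.000847 in RiboTag libraries. Scaled to the gene spans, this background predicts 7.83 to 35.3% of whole cell and 0.0212 to 0.0344% of RiboTag counts. Counts of calls with this background subtracted stand beside some of the lists, and other lists changed as well.

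The label male was not borne out in 2 RiboTag libraries. The summed level of the Y-linked genes Ddx3y, Uty, Eif2s3y and Kdm5d was 0.212 scaled CPM in the library labelled male number 2 and 4.49 in number 6, against 21.4 to 26.6 in the other RiboTag and 39.0 to 62.4 in the whole cell libraries. Both libraries also had the highest RiboTag levels of Xist, the RNA that silences an X chromosome in females, at 4.45 and 6.43 scaled CPM. Whole cell number 2, with a Y-linked sum of 53.6, had a similar Xist level of 3.97. The main comparison keeps both libraries, and counts without them are given beside it.

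D2-MSN markers were present in each fraction, and 4 of 5 rose in RiboTag. Penk ran from 340.4 over a median of 470 to 765 scaled CPM in whole cell libraries and from 1611 over 1838 to 1863 in RiboTag libraries. The groups did not overlap, and the log2 fold change was 1.80 ± 0.22 (SE, n = 6 and 6, adjusted p = 2.12e-06). Sp9, a transcription factor of D2-MSN development, rose from a median of 5.83 (3.28 to 6.99) to 32.8 (29.5 to 40.2) scaled CPM, again without overlap, by 2.59 ± 0.17 on the log2 scale (adjusted p = 6.27e-09). Adora2a rose by 0.82 ± 0.21 (adjusted p = 0.00218) and the orphan receptor Gpr6 by 1.10 ± 0.24 (adjusted p = 0.000745), both with overlapping groups.

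Drd2 went the other way. Its level ran from 183 over a median of 384 to 826 scaled CPM in whole cell and from 101 over 117 to 133 in RiboTag libraries. All RiboTag libraries lay below all whole cell libraries, and Drd2 fell by 1.88 ± 0.28 on the log2 scale (adjusted p = 1.69e-05). The transgenes that carry Drd2 regulatory sequence differ between the groups, and their part in this value cannot be told apart from fraction.

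**Figure D1:**
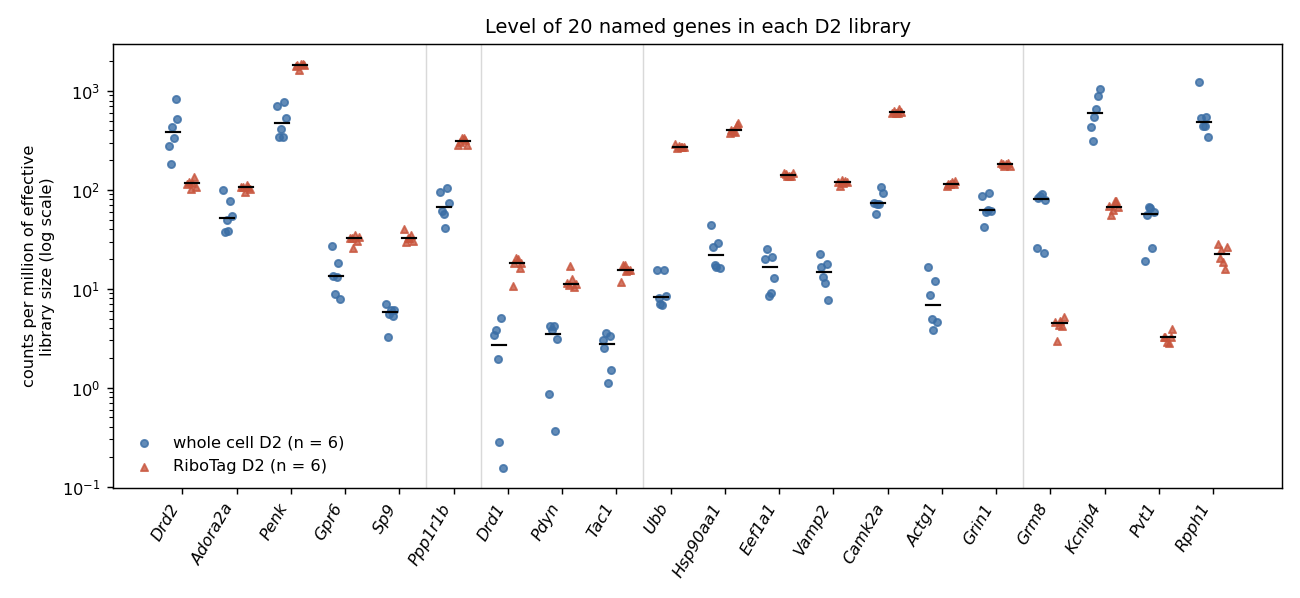
Level of 20 named genes in the 6 whole cell D2 (circles) and 6 RiboTag D2 libraries (triangles), as scaled CPM on a log axis, with the median of each group as a bar. From left to right, the thin lines part D2-MSN markers, Ppp1r1b, D1-MSN markers, genes that rose in RiboTag, and genes that fell. Whole cell libraries spread over a wider range than RiboTag libraries, and Penk and Drd2 moved in opposite directions.

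Markers of D1-MSNs were low in whole cell D2 libraries and higher in RiboTag. Drd1 ran from 0.153 over a median of 2.68 to 5.04 scaled CPM in whole cell and from 10.6 over 18.1 to 20.5 in RiboTag libraries, a rise of 2.82 ± 0.57 (adjusted p = 0.000345). The neuropeptide genes Tac1 and Pdyn rose by 2.60 ± 0.26 (adjusted p = 3.6e-07) and 2.14 ± 0.45 (adjusted p = 0.000442), and the muscarinic receptor Chrm4 by 2.89 ± 0.83 (adjusted p = 0.00485). None of these 4 overlapped between groups. Isl1, a transcription factor of D1-MSNs, was not called, at 2.39 (0.214 to 3.45) scaled CPM in whole cell and 1.37 (0.742 to 1.97) in RiboTag libraries. Summed over the 5 D1 markers, levels were 7.61 to 14.7 scaled CPM in whole cell and 39.2 to 61.9 in RiboTag libraries, against 583 to 1691 and 1865 to 2162 for the 5 D2 markers.

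Of 18 genes shared by both MSN types, 12 rose and 2 fell, with a median log2 fold change of 1.07. Over all protein-coding genes tested, 19.1% were called higher and 57.2% lower. Rasd2, a striatal small GTPase, rose by 2.18 ± 0.19 (adjusted p = 6.65e-08) and Ppp1r1b, which encodes the dopamine signalling hub DARPP-32, by 2.11 ± 0.20 (adjusted p = 1.52e-07). The medians of Ppp1r1b were 67.6 (41.0 to 104) and 313 (286 to 337) scaled CPM. The transcription factor Foxp1 fell by 0.84 ± 0.21 (adjusted p = 0.00191) and the GTPase activator Rgs9 by 0.62 ± 0.21 (adjusted p = 0.0114), and neither was called under TMM over all genes tested.

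Markers of other cells moved in both directions, beside 19.1% of all protein-coding genes tested called higher and 57.2% called lower. Among 7 interneuron genes, the peptide gene Sst rose from 0.103 (0 to 0.613) to 10.7 (7.10 to 15.8) scaled CPM, and Npy from 0.393 (0 to 2.16) to 4.37 (3.39 to 9.17). Chat, the acetylcholine-synthesizing enzyme of cholinergic interneurons, which also use Drd2, fell from 10.7 (4.91 to 14.2) to 4.35 (3.92 to 5.31). Nos1 and Pvalb were also called lower and Slc5a7 higher. Of these 3 lower calls, only that of Chat was kept under TMM over all genes tested, and 1 was kept without RiboTag numbers 2 and 6. Of 10 oligodendrocyte markers, 3 rose and 0 fell (median -0.55, or 0.02 under TMM over all genes tested). The summed oligodendrocyte level was 41.2 to 77.1 scaled CPM in whole cell and 90.0 to 130 in RiboTag libraries. Of 10 astrocyte markers, 3 rose and 3 fell. The glutamate transporter Slc1a2 rose by 1.48 ± 0.22 (adjusted p = 2.07e-05), whereas Aldh1l1 fell by 3.89 ± 0.48 (adjusted p = 2.68e-06). Summed astrocyte levels were 32.9 to 82.9 in whole cell and 82.2 to 106 in RiboTag libraries. Of these sums, Slc1a2 alone held 13.3 to 36.1 and 56.7 to 78.3 scaled CPM. The median of the astrocyte list was -0.93, or -0.35 under TMM over all genes tested.

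Most vascular and microglial markers tested fell, as did 57.2% of all protein-coding genes tested. Of 8 endothelial markers tested, 7 fell, or 6 with the background subtracted, and Itm2a was not called. The clotting factor gene Vwf had 23.8 (3.05 to 28.1) scaled CPM in whole cell libraries and no count in most RiboTag libraries, up to 0.222. Summed over the 10 listed endothelial markers, levels were 3.70 to 5.16 in RiboTag, 32.3 and 38.8 in whole cell numbers 1 and 5, and 89.6 to 113 in the other whole cell libraries. Numbers 1 and 5 also had the lowest receptor gene background of the whole cell libraries, at 0.0224 and 0.0242 scaled CPM per kilobase. The tight junction gene Cldn5, a defining endothelial marker, was too low to be tested. Of 6 microglial markers tested, 5 fell and 0 rose, or 4 and 1 under TMM over all genes tested. Over the listed microglial markers reported here, summed levels were 35.1 to 68.4 scaled CPM in whole cell and 32.6 to 37.5 in RiboTag libraries, so the groups overlapped. C1qa, C1qb, C1qc and Aif1, which mark microglia, were too low to be tested. The part of these cells in the results was not tested, and fewer cells of a type cannot be told apart from less RNA per cell.

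Across 24693 genes tested, 4004 (16.2%) were called higher and 15419 (62.4%) lower in RiboTag. Genes could pass the filter through either fraction alone. No count in RiboTag was found for 3506 of the genes tested, and none in whole cell libraries for 29, which weighs toward lower calls and medians. Of 17527 protein-coding genes, 3344 (19.1%) were higher and 10030 (57.2%) lower, with a median log2 fold change of -1.15. In 2668 (15.2%) all RiboTag libraries lay above all whole cell libraries, and in 6506 (37.1%) all lay below. Without RiboTag numbers 2 and 6, 3656 genes were called higher and 14773 lower. TMM over all genes tested raised log2 fold changes by a median of 0.46 and DESeq2 size factors by 0.37, which changed the share of calls that were higher from 20.6% to 29.2 and 27.7%. With the receptor gene background subtracted, 3253 were higher and 12451 lower.

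The 10 genes named for high log2 fold changes were the highest among called protein-coding genes with a mean level above the median, no overlap with another annotated gene and no overlap between the groups. Genes outside these limits, such as Filip1l and Gphn below, had higher values. The stress-inducible ubiquitin gene Ubb (chromosome 11) ran from 6.81 over 8.25 to 15.6 scaled CPM in whole cell and from 266 over 271 to 289 in RiboTag libraries, a rise of 4.75 ± 0.24 (adjusted p = 8.66e-10). The chaperone gene Hsp90aa1 ran from 16.3 over 21.7 to 43.8 and from 376 over 398 to 471, a rise of 4.06 ± 0.25 (adjusted p = 3.62e-09). Neither gene overlapped between groups. Eif1, a start codon recognition factor, rose by 4.21 ± 0.41 and Hcfc1, a transcriptional co-regulator, by 3.60 ± 0.21 (adjusted p = 2.59e-07 and 2.94e-09). Sst, Marcksl1, Rpl29 and Ndnf, a secreted neurotrophic factor, were also among these 10, as was Srp54b. Srp54b has near-identical copies on the same chromosome, so its value is uncertain where reads could align to several of them.

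The 10 lowest within the same limits were at 0 in every RiboTag library, so only bounds can be given, taken against 3 counts over the group. Gm10800, Gm21738 and Gm10801 were at least 30555-fold, 26408-fold and 9248-fold lower in RiboTag. Whole cell medians were 1080.1, 1003 and 284 scaled CPM. The other 7 were Morc1, Ccl1, Atp8b4, Them7, Fat2, Tprg and Tcp11x2, with bounds of 372-fold to 561-fold. Morc1, a germ cell chromatin gene, had 24.0 (7.50 to 34.3) scaled CPM in whole cell libraries. All 10 remained called lower after the receptor gene background was subtracted, which says little, since their RiboTag level was 0 either way. The part of this background in their whole cell levels was not tested.

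A small set of loci held most RiboTag counts. The rRNA gene CT010467.1 held 27.2 to 28.2% of each RiboTag library and 0.193 to 19.6% of each whole cell library. The lincRNAs Gm42418 and AY036118 held 23.6 to 24.2% and 22.9 to 23.5%, against 0.173 to 17.1% and 0.0794 to 10.9%. These 3 genes overlap one another within 39846353 to 39848827 of chromosome 17 (GRCm38), and a fragment was added to each gene it overlaps on either strand, so they share counts and their shares cannot be summed. Cmss1 and Filip1l, which overlap and share their counts, held 3.20 to 3.82% each against at most 0.0875%. The top whole cell genes were the same 3 genes followed by Cdk8 and Kpna1, and Kpna1, a nuclear import receptor, ran from 37.6 to 11029.9 scaled CPM over the whole cell libraries. The 10 genes with most counts in RiboTag held 0.533 to 49.3% of whole cell counts, which is given with no test, since the genes were chosen on these counts.

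Because these loci took up most RiboTag counts, shares were also computed without them. Protein-coding genes then held 92.7 to 93.0% of RiboTag and 84.5 to 89.4% of whole cell counts. LincRNA genes held 1.91 to 2.15 and 3.75 to 6.00%, and snoRNA, scaRNA and snRNA genes 0.00819 to 0.00942 and 0.0446 to 0.321%. Mitochondrial mRNAs held 0.152 to 0.166 and 0.0459 to 0.147%, and ribosomal protein genes 0.316 to 0.356 and 0.0596 to 0.198%. None of these ranges overlapped (exact permutation test, two-sided, p = 0.00216, the smallest that 6 against 6 allows, adjusted p = 0.00247 each). The loci left out were chosen on these same RiboTag counts and include lincRNAs, so the p-values depend on that choice. For the shares that turn with it, named next, they do not set a direction. With the 10 loci included, the difference turned for protein-coding genes (51.3 points lower in RiboTag), lincRNAs (34.4 points higher), mitochondrial mRNAs and ribosomal protein genes.

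The difference varied with intron content. Over protein-coding genes ranked by intron bases, the median log2 fold change was 0.67 in the lowest decile (median of 1029 intron bases) and -1.99 in the highest (median of 211328). In the lowest decile, 40.7% of genes were higher and 20.1% lower, and in the highest 5.08% were higher and 84.0% lower. Spearman's rho of intron bases with log2 fold change was -0.19 across 17527 genes, given as a description, since both come from gene-body counts and genes are not independent replicates. After background subtraction, the medians of the lowest and highest decile were 0.53 and -1.67. Of 353 protein-coding genes with a span over 400 kb, 331 fell and 7 rose, and of 383 single-exon genes tested, among 1467 annotated, 201 rose and 42 fell. After background subtraction, 310 of 349 long genes tested fell and 10 rose, and 156 single-exon genes rose and 38 fell. Gphn, the inhibitory synapse scaffold, was one of the 7 long genes that rose as counted, at 129 (95.2 to 294) scaled CPM in whole cell and 15044 (13317 to 16548) in RiboTag libraries, and Camk1d another. Both overlap other annotated genes, and a fragment was added to each gene it overlaps. Their counts can therefore not be assigned to Gphn or Camk1d alone.

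**Figure D2:**
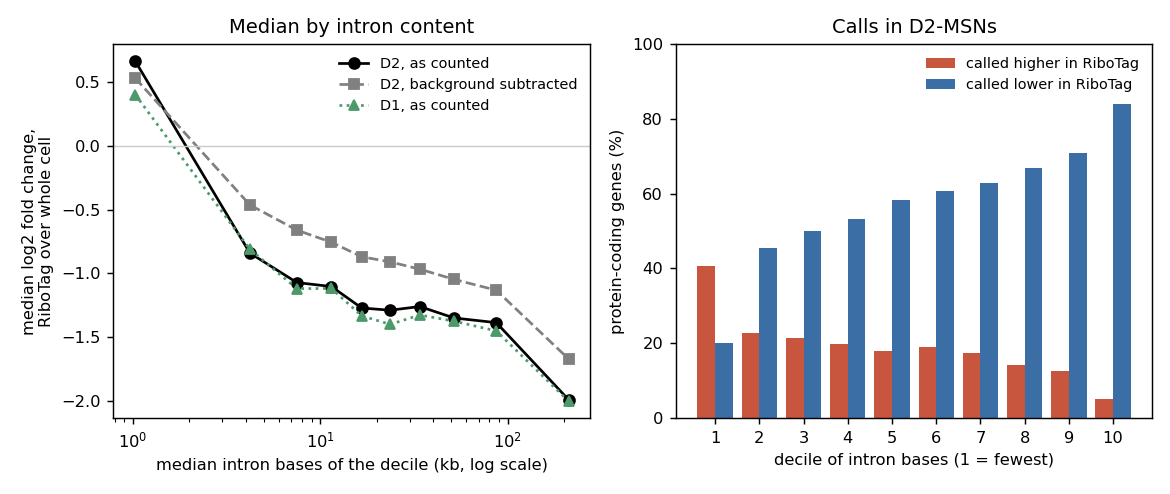
Left, median log2 fold change of RiboTag over whole cell for each decile of intron bases among protein-coding genes (kb, log axis), for D2-MSNs as counted, D2-MSNs with the receptor gene background subtracted, and D1-MSNs. Right, percent of genes of each decile called higher or lower in RiboTag D2 libraries. The median fell from 0.67 in the lowest to -1.99 in the highest decile.

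Genes of protein synthesis rose. Of 79 ribosomal protein genes, 65 rose and 1 fell, with a median log2 fold change of 1.62, against 19.1% higher and a median of -1.15 among protein-coding genes. Relative to genes of the same intron decile, their median was 1.24 higher. Without RiboTag numbers 2 and 6, 56 rose and 1 fell, and with the background subtracted 51 rose and 1 fell. Rpl21 rose from 1.91 (1.09 to 3.23) to 28.9 (26.9 to 31.2) scaled CPM, by 3.85 ± 0.23 (adjusted p = 2.94e-09), and Rpl29 by 3.85 ± 0.49 (adjusted p = 3.72e-06). Rps12 was the member called lower, by 1.57 ± 0.54 (adjusted p = 0.0153), and lost its call under TMM over all genes tested. Rpl22, whose tagged form served for the pull-down, was not called, at 4.09 (1.82 to 9.43) and 6.66 (5.66 to 8.08) scaled CPM. Ribosomal proteins have many processed pseudogenes, and fragments that align to several places were left out by the authors, so levels of single members are uncertain.

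Start sites were examined for a pyrimidine run, since these mRNAs are known to carry one. RefSeq sequences (GRCm38.p6) were searched on the gene's strand for a C followed by 4 or more bases that are each C or T, starting within 5 bases of the annotated start. Of the 79 ribosomal protein genes, 58 were in the table and 28 (48.3%) held a run, against 23.0% of 13466 protein-coding genes tested and 21.2% of all 27025 genes in the table. Ribosomal protein genes with and without a run had median log2 fold changes of 1.60 and 1.54. Shown are the highest 4 ribosomal protein genes in the table, the elongation factor gene Eef1a1, the growth-related TOP gene Tpt1, and Rps12. Each is given from 5 bases before to 20 bases from the start. Capitals mark the run from the fitting C nearest the start, and any C or T just before that C is left in lower case:
Rps23 (chr13:90923117-90923141, plus strand): gggcggggCTTCCCgcaatgccttg
Rps6 (chr4:86857348-86857372, minus strand): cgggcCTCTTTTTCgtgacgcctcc
Rps26 (chr10:128626487-128626511, minus strand): ccgccggatCCTCTTTCgagtcttg
Rps4x (chrX:102189372-102189396, minus strand): gcggagcaacccaggctccagcgcg
Eef1a1 (chr9:78481705-78481729, minus strand): ccctCTTCCCgagggtgggggagaa
Tpt1 (chr14:75845251-75845275, plus strand): acgacagttccgggggagccgcgga
Rps12 (chr10:23787190-23787214, minus strand): cggccaccgccggccttttcccctg
Among these, Rps6, Rps23 and Rps26 rose by 3.51, 3.52 and 3.45 on the log2 scale and held a run, while Rps4x rose by 3.28 and held none by this definition.

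Of 14 other TOP mRNAs, 11 rose and 1 fell, beside 19.1% of protein-coding genes called higher and 57.2% called lower. Eef1a1 rose from 16.5 (8.49 to 25.2) to 142 (136 to 149) scaled CPM (3.15 ± 0.25, adjusted p = 3.05e-08) and the nucleolar chaperone Npm1 by 2.70 ± 0.29 (adjusted p = 7.26e-07). Eif3h, a subunit of the initiation factor eIF3, fell by 0.41 ± 0.12 (adjusted p = 0.00633), and its sign turned under TMM over all genes tested. Of 42 translation factors, 34 rose and 2 fell. The second was Eif4ebp1, a translation repressor under mTOR control, from 1.48 (0.0427 to 2.82) to 0 (0 to 0.122) scaled CPM. With the background subtracted, 26 rose and 0 fell, and both Eif3h (-0.37, adjusted p = 0.0159) and Eif4ebp1 (-4.23, adjusted p = 0.0519) lost their calls.

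Synaptic and cytoskeletal genes were high in RiboTag, beside 19.1% of all protein-coding genes tested called higher and 57.2% called lower. All 23 listed cytoskeletal genes rose, with a median of 2.24, and 22 rose without RiboTag numbers 2 and 6. Actg1 ran from 3.86 over 6.81 to 16.5 in whole cell and from 108 over 115 to 122 scaled CPM in RiboTag libraries, a rise of 3.78 ± 0.32 (adjusted p = 5.38e-08). Tuba1b rose by 3.78 ± 0.28 (adjusted p = 1.55e-08). Of 20 synaptic vesicle genes, 16 rose, led by the vesicle SNARE gene Vamp2 (3.01 ± 0.21, adjusted p = 9.55e-09) and the complexin gene Cplx2 (2.67 ± 0.20, adjusted p = 1.62e-08), and Rims1, an active zone organizer, fell by 1.01 ± 0.13 (adjusted p = 5.56e-06). Of 18 postsynaptic genes, 13 rose and 4 fell. Camk2a, the kinase of synaptic plasticity, ran from 56.4 over 73.2 to 106 and from 595 over 608 to 663 scaled CPM, a rise of 2.97 ± 0.16 (adjusted p = 1.32e-09), and the calmodulin-binding Nrgn rose by 2.74 ± 0.21 (adjusted p = 2.86e-08). Dlgap2, a postsynaptic scaffold with long introns, fell by 1.82 ± 0.21 (adjusted p = 1.19e-06). Of 13 secretory granule genes, 8 rose and 3 fell. The prohormone convertase inhibitor Pcsk1n and the granule protein Vgf rose by 2.79 ± 0.17 and 2.51 ± 0.14 (adjusted p = 3.14e-09 and 1.96e-09), and the priming factors Cadps2 and Cadps fell. The call of Cadps was lost under TMM over all genes tested (-0.33, adjusted p = 0.0581) and that of Cadps2 with the background subtracted (-1.52, adjusted p = 0.0900).

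Energy and chaperone genes followed, again beside 19.1% of all protein-coding genes tested called higher and 57.2% called lower. All 16 glycolysis genes rose, with a median of 1.40, from 0.59 for Pfkp to 3.23 ± 0.53 for Gapdh (adjusted p = 4.68e-05). Of 61 nuclear respiratory chain genes, 41 rose and 0 fell (median 0.94), or 35 and 1 with the background subtracted, led by Cox5b, at 6.19 (4.42 to 10.3) and 58.7 (54.7 to 59.7) scaled CPM. Of 13 mitochondrial mRNAs, 9 rose and 1 fell. The highest was mt-Nd6 (2.52 ± 0.28, adjusted p = 8.96e-07), and mt-Co3 fell by 0.72 ± 0.26 (adjusted p = 0.0204), a call lost under TMM over all genes tested. These mRNAs are translated inside mitochondria, on ribosomes that do not hold Rpl22. Of 14 heat shock genes tested, among 17 listed, 13 rose, with Hsp90ab1 at 2.36 ± 0.23 (adjusted p = 2.23e-07), and the co-chaperone Bag3 fell by 2.74 ± 0.37 (adjusted p = 7.95e-06). Of 17 genes of folding in the endoplasmic reticulum, 10 rose and 1 fell, led by the lectin chaperones Canx (1.98 ± 0.19) and Calr (1.81 ± 0.26, adjusted p = 1.8e-07 and 1.24e-05). Of 8 genes of the integrated stress response, 3 rose and 3 fell, with Atf4 at 0.91 ± 0.24 (adjusted p = 0.00248), and 0 rose with the background subtracted.

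**Figure D3:**
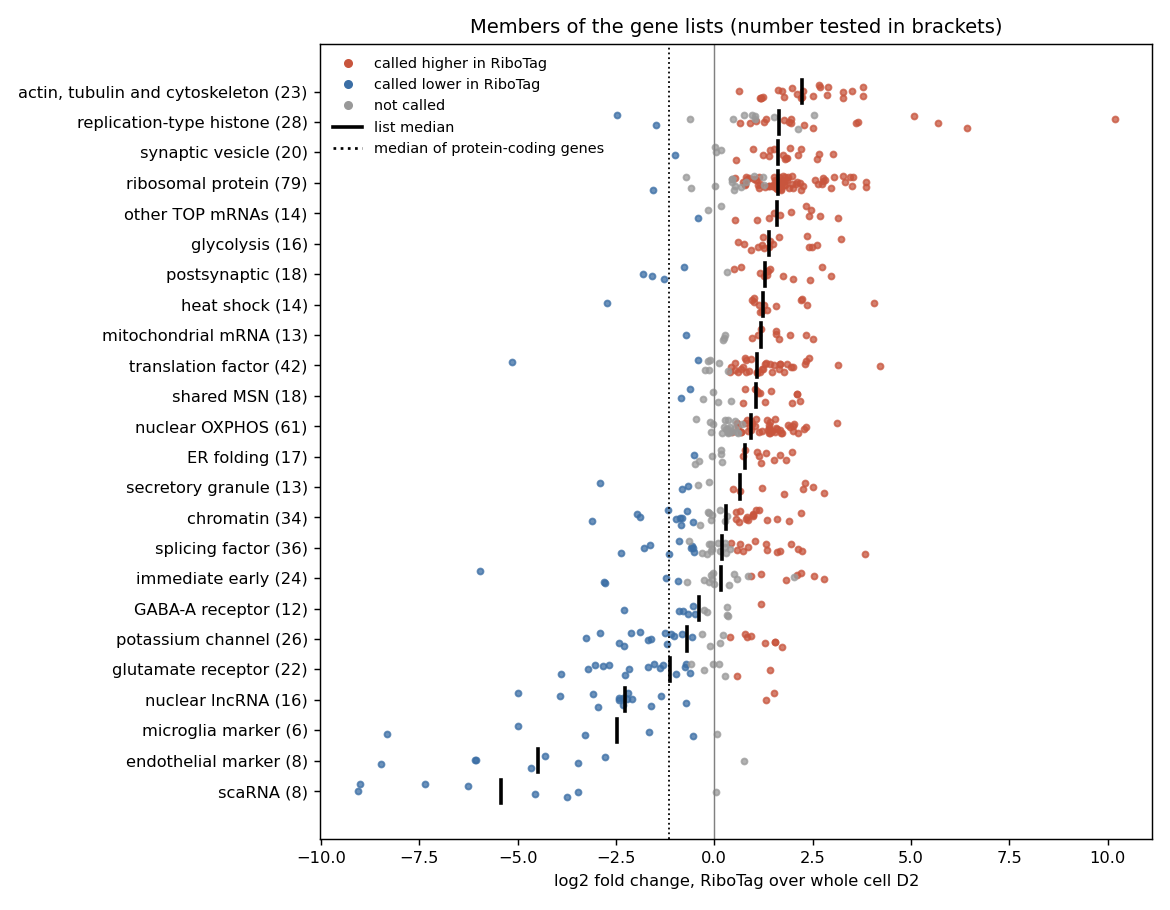
Log2 fold change of RiboTag over whole cell D2 for each tested member of the gene lists, ordered by list median (bar). Colours mark members called higher, called lower or not called, and the dotted line is the median of protein-coding genes (-1.15). All cytoskeletal and glycolysis members lie to the right of 0, and nuclear lncRNAs, endothelial markers and scaRNAs lie mostly to the left.

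Receptor and channel genes were mixed, beside 57.2% of all protein-coding genes called lower and 19.1% called higher. Of 22 glutamate receptor genes, 2 rose and 15 fell, with a median of -1.13, close to that of protein-coding genes. The obligatory NMDA receptor subunit Grin1 rose from 61.9 (41.8 to 92.5) to 182 (173 to 187) scaled CPM, by 1.42 ± 0.16 (adjusted p = 1.39e-06), and Grin2b rose by 0.57 ± 0.15 (adjusted p = 0.00303), a call lost with the background subtracted (0.30, adjusted p = 0.0658). The metabotropic receptor Grm8 fell from 80.8 (23.2 to 91.5) to 4.46 (2.97 to 5.23), by 3.89 ± 0.35 (adjusted p = 1.03e-07), and the kainate receptor subunit Grik1 by 3.22 ± 0.36 (adjusted p = 1.16e-06). Relative to genes of the same intron decile, the median of the list was 0.65 higher. Of 12 GABA-A receptor subunits, 1 rose and 6 fell, but 4 rose and 1 fell under TMM over all genes tested, where the list median turned from -0.38 to 0.05. Of 26 potassium channel genes, 8 rose and 14 fell, from Kcna2 (1.72 ± 0.20, adjusted p = 1.4e-06) to the channel-interacting Kcnip4 (-3.25 ± 0.26, adjusted p = 3.49e-08).

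Immediate early, splicing and chromatin genes stand beside 19.1% of all protein-coding genes tested called higher and 57.2% called lower. Under TMM over all genes tested, 4768 of 17527 protein-coding genes were higher and 8621 lower. Of 24 immediate early genes tested, 7 rose and 5 fell, or 10 and 2 under TMM over all genes tested and 5 and 3 with the background subtracted, where Bdnf was no longer tested. Egr3 rose from 6.10 (2.42 to 8.77) to 41.7 (33.0 to 43.6) scaled CPM (2.80 ± 0.24, adjusted p = 6.19e-08) and Egr1 by 2.53 ± 0.23 (adjusted p = 1.37e-07). Atf3, a stress-induced transcription factor, fell from 7.30 (0.936 to 8.86) to 0.0304 (0 to 0.411) (adjusted p = 7.74e-06), and the neurotrophin Bdnf by 2.81 ± 0.54 (adjusted p = 0.000232). Fos, the usual activity marker, was not called, at 2.09 and 1.12 scaled CPM in the median. Of 36 splicing factors, 14 rose and 9 fell, with Hnrnpa3 at 3.84 ± 0.20 (adjusted p = 1.26e-09) and the splicing kinase Clk1 at -2.36 ± 0.26 (adjusted p = 8.89e-07), and 3 fell under TMM over all genes tested. Of 34 chromatin genes, 16 rose and 10 fell, from the remodeller Chd3 (2.21 ± 0.14, adjusted p = 6.35e-09) to the deacetylase Hdac9 (-3.12 ± 0.20, adjusted p = 4.94e-09), and 5 fell under TMM over all genes tested.

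Nuclear non-coding RNAs were lower, beside 62.4% of all genes tested called lower and 16.2% called higher. Of 16 lncRNAs of the nucleus, 14 fell and 2 rose, with a median of -2.26. The imprinted microRNA host Mirg fell from 27.6 (20 to 31.3) to 0.832 (0.374 to 1.21) scaled CPM (5.00 on the log2 scale, SE 0.23, adjusted p = 4.28e-10) and Pvt1 from 57.4 (19 to 67.6) to 3.27 (2.86 to 3.89). Malat1, the abundant lncRNA of nuclear speckles, fell by 2.20 on the log2 scale. Peg13 and Tug1 rose by 1.51 ± 0.22 and 1.32 ± 0.20 (adjusted p = 1.54e-05 and 2.89e-05). Over all 2670 lincRNA genes tested, 2441 fell and 73 rose, with a median of -6.94, and 1056 of them had no count in RiboTag. After background subtraction, 2279 lincRNA genes were tested, of which 1938 fell and 60 rose.

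Small structural RNAs fell with few exceptions. Of 35 snoRNAs tested, among 1507 annotated, 31 fell and 1 rose. All 13 snRNAs tested, among 1385 annotated, and 7 of 8 scaRNAs tested, among 51, fell. Among the 35 snoRNAs, 14 had no count in RiboTag, and the tested snRNAs Gm26232 and Gm23240 had none either. Genes without RiboTag counts passed the filter through whole cell libraries alone, so they could not have risen. Of all annotated snRNAs and scaRNAs, 1232 and 29 had no count in RiboTag. Rmrp, the RNA of the mitochondrial RNA processing enzyme, went from 86.7 (13.9 to 410) to 0.105 (0 to 0.329) scaled CPM, and Rpph1, the RNA of ribonuclease P, from 486 (345 to 1234) to 22.4 (15.9 to 28.3). Rn7s1 and Rn7s2, the RNAs of the signal recognition particle, which binds ribosomes, rose by 2.49 ± 0.54 and 1.51 ± 0.35 (adjusted p = 0.000638 and 0.000967). Of 96 miRNA genes tested, 63 rose and 10 fell, or 53 and 11 with the background subtracted. Of the 63, however, 61 lie in or across another gene whose fragments are counted for both. Gm23935, for example, lies within Zc3h7a. Of 67 replication-type histone genes, whose mRNAs lack a poly(A) tail, 28 were tested, of which 17 rose and 2 fell, or 12 and 1 with the background subtracted. Beside them, 40.7% of genes of the lowest intron decile were higher. Of 383 single-exon genes, 201 rose, or 156 with the background subtracted. Relative to genes of the same intron decile, the histone median was 1.17 higher. Hist2h2aa2 had no count in whole cell libraries and 4.84 (4.35 to 5.83) scaled CPM in RiboTag libraries, and several members share near-identical copies. Of 1837 antisense genes, 285 (15.5%) rose and 1093 (59.5%) fell, near the 16.2 and 62.4% of all genes tested, and since counting disregarded strand, they cannot be told apart from their sense partners. Background subtraction left 229 antisense genes higher and 839 lower among 1732 tested.

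Across 17413 protein-coding genes tested in both cell types, the log2 fold changes of the D2-MSN and D1-MSN comparisons were correlated at 0.968 (Pearson) and 0.978 (Spearman), given as a description over genes, with no library in common. Of the 13282 such genes called in D2-MSNs, 93.8% were called in the same direction in D1-MSNs and 5 in the opposite one. When the difference between the fractions in D2-MSNs minus that in D1-MSNs was tested directly in one model (27908 genes), 16 (0.0573%) were higher and 9 (0.0322%) lower in D2-MSNs, and 1720 had an unadjusted p under 0.05. DESeq2 called 58 and 37, and without RiboTag numbers 2 and 6 the calls fell to 4 and 1.

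Genes that mark the cell types were among them. Drd2 fell in RiboTag of D2-MSNs, while the value in D1-MSNs was 0.70 ± 0.34 and not called, a difference of -2.66 ± 0.46 (adjusted p = 0.0121). Drd1 and Tac1 rose in D2-MSNs, while in D1-MSNs the values were -0.18 ± 0.25 and 0.12 ± 0.31, with differences of 2.93 ± 0.60 (adjusted p = 0.0429) and 2.40 ± 0.43 (adjusted p = 0.0121). Adora2a, Penk, Gpr6, Sp9, Pdyn, Isl1 and Chrm4 were not called in this test. On the scale of the 4 groups, the median of Drd2 was 463 in whole cell D2, 135 in RiboTag D2, 11.3 in whole cell D1 and 20.5 scaled CPM in RiboTag D1 libraries, and that of Drd1 was 3.22, 20.9, 91.3 and 73.2.

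Ndnf rose by 3.75 ± 0.40 in D2-MSNs and fell by 1.52 ± 0.36 in D1-MSNs, the largest difference toward D2-MSNs among named genes (5.18 ± 0.56, adjusted p = 1.51e-05). On the scale of the 4 groups its median level was 3.57 in whole cell D2, 46.5 in RiboTag D2, 4.16 in whole cell D1 and 1.41 scaled CPM in RiboTag D1 libraries. Sfxn1, a mitochondrial serine transporter that lies 16.2 kb from Drd1 (chromosome 13, 54071869 to 54108342, GRCm38), differed by 1.65 ± 0.24 (adjusted p = 0.00157), with medians of 119 scaled CPM in whole cell D1, 28.5 in RiboTag D1, 8.01 in whole cell D2 and 5.99 in RiboTag D2 libraries. Marcksl1 rose in both cell types, by more in D2-MSNs (2.59 ± 0.45, adjusted p = 0.0121). Toward D1-MSNs were Ccn2, a secreted matrix protein (-4.67 ± 0.83, adjusted p = 0.0121), the presynaptic scaffold Bsn (-1.14 ± 0.20), B3gat1 (-1.03 ± 0.18) and the synaptic adaptor Srcin1 (-0.98 ± 0.19). Only Ndnf, Sfxn1, Gm15270, Gm47313 and Gm10123 among the 25 genes were still called without RiboTag numbers 2 and 6. The differences themselves moved little, to -2.66 for Drd2, 2.90 for Drd1, 2.35 for Tac1 and 2.65 for Marcksl1.

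**Figure D4:**
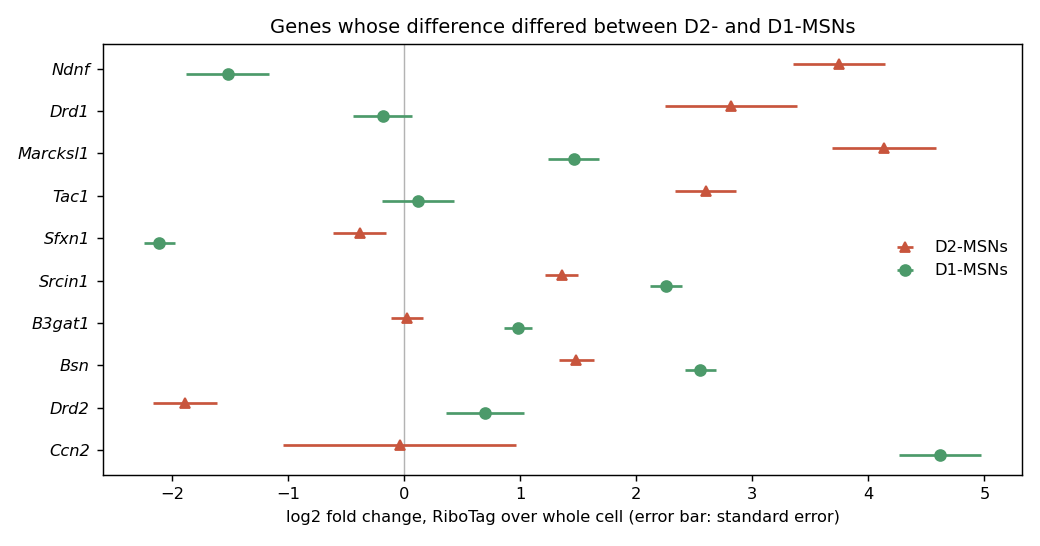
Log2 fold change of RiboTag over whole cell in D2-MSNs (triangles) and D1-MSNs (circles) for the 10 named genes whose difference differed between the cell types, with the standard error. Ndnf rose in D2-MSNs and fell in D1-MSNs, while Drd2 was at -1.88 in D2-MSNs and at 0.70 in D1-MSNs.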

How the data were processed

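Values are raw counts of fragments per gene, deposited by the authors in 1 table of 49 columns. According to the methods and the submitters' processing notes, reads were aligned with HISAT2 2.0.5 to GRCm38 and counted with featureCounts over gene bodies. Introns were included, a fragment over several genes added to each of them, and multimapping fragments were left out. Libraries were ribo-depleted and made with the Clontech SMARTer Stranded kit. Of the columns, 1 matched no sample and was not used, and the columns taken as lanes of whole cell number 3 were summed.

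Genes with more than 1 scaled CPM in at least 2 of 12 libraries were tested with edgeR 4.0.16 (glmQLFit and glmQLFTest, R 4.3.3), with DESeq2 1.42.0 as an alternative. TMM factors came from genes with at least 10 counts in every library. Calls needed a Benjamini-Hochberg adjusted p of at most 0.05 and an absolute log2 fold change above 0.38. Whole cell effective sizes exceed total counts and RiboTag ones lie below them. The difference between D2-MSNs and D1-MSNs was an interaction term over the male RiboTag and whole cell libraries of both cell types. Shares of counts were compared with an exact permutation test over samples (924 arrangements). GENCODE M21 gave gene spans, and RefSeq the sequences. Scripts were tested on simulated data. P-values measure the spread between mice, and depth intervals cover counting error only.

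Named genes were the 10 highest and 10 lowest called protein-coding genes whose groups did not overlap, with a mean level above the median and overlapping no other gene, the 2 highest and 2 lowest called members of each list, the 5 genes with most counts in each group, the D1 and D2 markers, and the 5 highest and 5 lowest protein-coding genes of the interaction above the median level. Malat1, Fos, Itm2a, Nos1, Pfkp, Slc5a7, Tpt1, Zc3h7a, the Rpl and Rps genes outside this rule, and the C1q, Aif1, Cldn5 and sex-linked genes were chosen after their values were seen. Members and lists were chosen with earlier results of these data known. Alternatives were other scalings, filters, DESeq2, a replicate block, each library left out, RiboTag numbers 2 and 6 left out and background subtraction. Some genes picked by these rules are not reported here.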

Additional observations from a re-analysis of the deposited data

Results flagged for a closer look

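A sample stood apart where its gap to the nearest other library of its group, divided by the range of the 6 libraries, was above Dixon's 95% critical value for 6 samples. Of 303 values tested, 39 did, 26 in whole cell and 13 in RiboTag libraries, where chance gives about 1 in 20. The gap as a share of the range is given in brackets, and a value of 1 means that the other 5 libraries were equal, here at 0. In RiboTag D2 number 1, the level of Atf3 (0.852) and Gm13375 (0.742) stood apart as the highest of the group. RiboTag D2 number 1 stood apart with the lowest level of mt-Co3 (0.771). In RiboTag D2 number 2, the level of Chac1 (0.673) stood apart as the lowest of the group. RiboTag D2 number 3 stood apart with the highest level of Pdgfra (0.641), Pvalb (0.710), Skint5 (1) and Pdyn (0.665). In RiboTag D2 number 3, the level of Penk (0.675) stood apart as the lowest of the group. RiboTag D2 number 4 stood apart with the highest level of Gm25395 (1). In RiboTag D2 number 5, the level of Vwf (0.726) and Bsn (0.630) stood apart as the highest of the group. RiboTag D2 number 6 stood apart with the highest level of Gm24270 (0.659). In whole cell D2 number 1, the level of Rpl29 (0.728), Peg13 (0.679), Rn7s1 (0.801), Rn7s2 (0.926), Rmrp (0.675), Rpph1 (0.781), Gm26232 (0.671), Gm23240 (0.678), Gm26825 (0.720) and B3gat1 (0.706) stood apart as the highest of the group. Whole cell D2 number 2 stood apart with the highest level of Gm10800 (0.666), Gm10801 (0.798), Mir6236 (0.801), Gm48099 (0.732), Gm26870 (0.694), Camk1d (0.716), Cmss1 (0.663) and Filip1l (0.674). In whole cell D2 number 3, the level of Gm27177 (1) and Gm8797 (1) stood apart as the highest of the group. Whole cell D2 number 5 stood apart with the highest level of Uty (0.632). In whole cell D2 number 6, the level of Gm24270 (0.845) and Gm13375 (0.751) stood apart as the highest of the group. Of the shares of counts, that of antisense genes (0.678) was highest in whole cell D2 number 6, that of snoRNA, scaRNA and snRNA genes (0.661) was highest in whole cell D2 number 1, and that of ribosomal protein genes (0.796) was highest in whole cell D2 number 1. The causes were not tested.

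The log2 fold change of RiboTag over whole cell differed between D2-MSNs and D1-MSNs by edgeR's quasi-likelihood interaction test for 10 named genes. Differences, as D2-MSNs minus D1-MSNs, were Ndnf (5.18, adjusted p = 1.51e-05), Drd1 (2.93, adjusted p = 0.0429), Marcksl1 (2.59, adjusted p = 0.0121), Tac1 (2.40, adjusted p = 0.0121), Sfxn1 (1.65, adjusted p = 0.00157), Srcin1 (-0.98, adjusted p = 0.0251), B3gat1 (-1.03, adjusted p = 0.0121), Bsn (-1.14, adjusted p = 0.0121), Drd2 (-2.66, adjusted p = 0.0121) and Ccn2 (-4.67, adjusted p = 0.0121).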

How the results depend on the processing

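Under every alternative the counts of genes called higher and lower stayed within 1.5 times the reported counts, except that edgeR's own low-count filter left 10018 genes called lower, with fewer genes tested. Leaving out 1 library gave 3795 to 4292 higher and 13868 to 15444 lower. Numbers shared by the groups did not pair the samples (correlation of same-numbered libraries' deviations -0.026 to 0.040 over 11239 genes, no library closest to its own number), and a replicate block gave 4258 higher and 14610 lower. The sign turned for Eif3h under TMM over all genes tested (0.0659) and for Kpna1 with the replicate block (0.24). Shares of counts without the 10 genes with most counts in RiboTag turned to 5.95 percentage points for protein-coding genes, -3.07 for lincRNAs, 0.082 for mitochondrial mRNAs and 0.235 for ribosomal protein genes.

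For the difference between D2-MSNs and D1-MSNs, DESeq2 called 58 genes higher and 37 lower, TMM over all genes tested 5 lower, and RiboTag numbers 2 and 6 left out together 4 higher and 1 lower. Leaving out 1 library gave 14 to 27 higher, with 25, 27, 26 and 25 without whole cell number 1, 2, 3 and 4, and 5 to 24 lower, with 16 and 24 without whole cell number 1 and 2 and 5 without RiboTag number 2.

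Of 280 list medians under alternatives, each relative to that of genes with at least 10 counts in every library, 33 moved by more than the spread between replicates. With the background subtracted it was 0.81 for D2 markers, 0.79 for shared MSN genes, 0.58 for astrocyte markers, -3.72 for endothelial markers, 0.87 for translation factors, 0.84 for mitochondrial mRNAs, -2.55 for nuclear lncRNAs, 0.48 for immediate early genes, 0.61 for folding genes, 0.50 for secretory granule genes, 1.40 for synaptic vesicle genes, 1.09 for postsynaptic genes, -0.45 for GABA-A receptor genes, -0.31 for potassium channel genes, -0.0311 for splicing factors, 1.30 for histone genes, 2.07 for miRNA genes and 0.96 for single-exon genes. With no filter on low counts it was -4.16 for structural RNAs, 0.42 for immediate early genes, -3.05 for snoRNA genes, -2.70 for scaRNA genes, -2.79 for snRNA genes, -1.17 for miRNA genes, -5.72 for lincRNA genes and -1.74 for single-exon genes. With the replicate block it was 0.55 for immediate early genes, 3.38 for miRNA genes and 1.50 for single-exon genes. With DESeq2 it was -5.88 for snoRNA genes and -5.93 for lincRNA genes. Without RiboTag numbers 2 and 6 it was 0.26 for chromatin genes and 1.10 for single-exon genes.

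Apart from the alternatives set out here, the cause of these shifts was not tested. Depth limits low genes, since 3 counts in RiboTag stand for up to 0.318 scaled CPM. Subtracting the background and leaving out numbers 2 and 6 were chosen after seeing the data.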
